A study of Homo sapiens with 4 samples.

Results

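Cell cycle genes were followed through the newly made RNA of Karpas 299 cells, an established human T cell line of anaplastic large cell lymphoma that carries CD30 on its surface and the fusion kinase NPM1-ALK. The set was a given list of 39 named genes, each with an entry among the 22798 genes counted on their own strand. By their order in that list, 22 of them are genes of G1 and S phase (G1/S) and 17 are genes of G2 phase and mitosis (G2/M). In the assay, Bru-seq, living cells build bromouridine into fresh transcripts, which an antibody then pulls out of total RNA. Karpas 299 cells were exposed for 3 h to Chinese hamster ovary cells that express the CD30 ligand (CD30L+ CHO) or to plain Chinese hamster ovary cells (CHO), and were then taken off by pipetting. In the drug experiment, cells received SM-164, a bivalent antagonist of inhibitor of apoptosis proteins, or DMSO, for 3 h. Bromouridine was present for the last 30 min in all 4 conditions. With 1 library per condition, no difference below has a replicate check. The line stands for 1 tumour, and the labels state no dose of SM-164.

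As background, a cell licenses its replication origins in G1 by loading the MCM helicase with the help of CDC6 and CDT1. D-type cyclins with CDK4 or CDK6, and then E-type cyclins with CDK2, free E2F factors from the retinoblastoma protein, and E2F drives the genes of DNA replication and nucleotide supply. G2/M genes encode mitotic cyclins, mitotic kinases, spindle motors and the machinery of mitotic exit. They peak later in the cycle under MYB-MuvB and FOXM1, and their promoters are known for a CHR element together with CCAAT boxes. In this lymphoma NPM1-ALK sustains proliferation, while CD30 and the inhibitor of apoptosis proteins act on NF-kB.

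The promoter letters differed in frequency between the classes, but did not separate them fully. No read was used. The letters were chosen as motifs known from cell cycle promoters, a choice that favours such a difference. RefSeq windows (GRCh38.p14) that run from 250 bases before to 50 bases after a gene start were matched by symbol to 32 of the 39 members. E2F letters (TTTCCCGC, TTTGGCGC or TTTCGCGC, either strand) lay in windows of 12 of 18 G1/S members and 1 of 14 G2/M members (7.14%). They lay in 3.30% of all 27305 symbols with a window, and in 6.35% of the 5844 of them tested in CHO against DMSO below. The G2/M share was thus close to that of tested genes. The CHR letters TTTGAA together with CCAAT, either strand, lay in windows of 1 of 18 G1/S members and 8 of 14 G2/M members, against 7.26% of all symbols and 6.49% of the tested ones. CCAAT alone was less selective, in 11 G1/S and 13 G2/M members against 39.7% of all symbols and 44.4% of the tested ones. These matches are letters and no measure of binding. The last 120 bases before the start are given, 5′ to 3′ on the gene's strand, for 3 members of each class. They are examples of where the letters can stand. Capitals mark matches of E2F letters in the first 3 and of CHR or CCAAT letters in the others.
CDT1, chr16:88803669-88803788, plus strand: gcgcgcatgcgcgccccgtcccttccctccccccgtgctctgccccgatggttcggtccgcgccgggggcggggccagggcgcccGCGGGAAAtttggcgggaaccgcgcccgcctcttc
GINS2, chr16:85688955-85689074, minus strand: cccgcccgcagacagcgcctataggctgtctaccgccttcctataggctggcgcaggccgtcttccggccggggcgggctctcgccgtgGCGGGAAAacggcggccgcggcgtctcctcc
TYMS, chr18:657533-657652, plus strand: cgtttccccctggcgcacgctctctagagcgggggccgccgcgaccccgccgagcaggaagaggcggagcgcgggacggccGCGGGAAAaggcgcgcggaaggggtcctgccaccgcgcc
CDC20, chr1:43358861-43358980, plus strand: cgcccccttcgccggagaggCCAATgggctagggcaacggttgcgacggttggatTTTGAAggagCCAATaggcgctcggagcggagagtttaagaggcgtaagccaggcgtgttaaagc
PLK1, chr16:23678769-23678888, plus strand: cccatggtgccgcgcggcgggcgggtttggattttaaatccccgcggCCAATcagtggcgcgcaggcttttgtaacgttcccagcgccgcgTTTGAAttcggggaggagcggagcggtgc
CCNB2, chr15:59105026-59105145, plus strand: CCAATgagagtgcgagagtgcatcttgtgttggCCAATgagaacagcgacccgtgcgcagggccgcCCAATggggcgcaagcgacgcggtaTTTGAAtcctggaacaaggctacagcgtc

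In CDT1, GINS2 and TYMS the E2F letters began 35, 31 and 39 bases before the start. In PLK1 and CCNB2 the CHR letters both began 29 bases before the start. In CDC20 they began 65 bases before it, and another match, outside the printed stretch, began 178 bases before it. Of 18 E2F matches in the windows of 12 G1/S members, 8 began within the last 60 bases before the start. Of 14 CHR matches in the windows of 8 G2/M members, 6 did, so the CHR letters held no fixed place. No window was given for MCM4, MCM5, CCNE2, CCND2, AURKA, TPX2 and UBE2C.

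The libraries held 45535365 reads (CD30L+ CHO), 45885631 reads (CHO), 26217590 reads (SM-164) and 31030478 reads (DMSO). The stimuli were visible in NF-kB feedback genes: BIRC3, which encodes c-IAP2, was 10.2-fold higher in CD30L+ CHO than in CHO, and 6.48-fold higher in SM-164 than in DMSO. NFKBIA, TNFAIP3, TRAF1 and RELB were 3.41-fold to 6.29-fold higher in CD30L+ CHO and 2.58-fold to 3.06-fold higher in SM-164. Of 8 markers of a CD30-positive lymphoma line, 7 reached an RPKM of 0.5 in each library, and ALK, of which the fusion keeps only the 3′ part, did not. The 8 markers of fibroblasts and epithelium and the 5 of B cells had summed RPKM of at most 0.593 and 0.394 in any library. Of 8 T cell surface genes (CD3D, CD3E, CD3G, CD247, CD4, CD8A, CD2 and CD5) 1 to 3 reached an RPKM of 0.5. Their sums were 1.89 in CD30L+ CHO, 2.57 in CHO, 4.05 in SM-164 and 3.97 in DMSO. Of 4 myeloid markers 1 or 2 reached it, with sums from 1.06 to 1.53.

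Levels are given as deposited RPKM, reads per library total and per length of counted bases, so genes of different length stand on 1 scale. By their medians, G2/M members were transcribed at higher levels than G1/S members in each library, but the classes overlapped. In DMSO, RRM2 and PCNA of the G1/S class had 13.1 and 9.62, and CENPE and CCNB2 of the G2/M class 2.28 and 2.59. The G1/S median includes CCND2, CCND3 and CDK6, each under an RPKM of 0.5 in each library. The median RPKM of the 17 G2/M members was 3.61 in CD30L+ CHO, 4.61 in CHO, 5.05 in SM-164 and 5.52 in DMSO. For the 22 G1/S members it was 0.919 in CD30L+ CHO, 1.06 in CHO, 1.77 in SM-164 and 2.02 in DMSO. Both medians were lower in the co-culture libraries than in the drug experiment. The G2/M median was 3.93 times the G1/S median in CD30L+ CHO and 4.34 times in CHO, but 2.85 times in SM-164 and 2.73 times in DMSO. In bulk RNA, fewer cells in a phase and less RNA made per cell cannot be told apart.

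**Figure D1:**
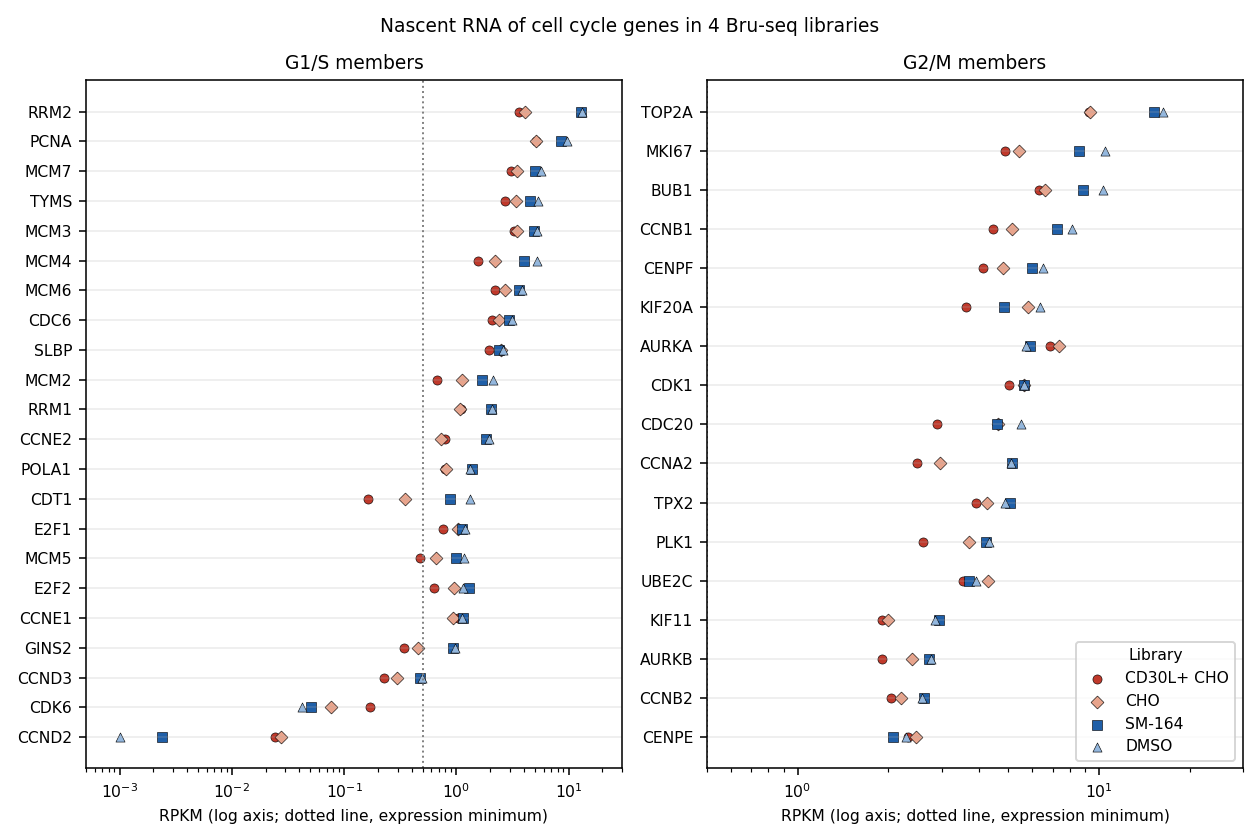
RPKM (log axes) of the 22 G1/S members (left) and 17 G2/M members (right) in the 4 libraries, 1 point per library, ordered by the DMSO value; the dotted line marks an RPKM of 0.5. RRM2 sits at 3.60 and 4.08 in the co-culture libraries and at 13 and 13.1 in the drug libraries, whereas the 4 points of CDK1 lie together and those of AURKA are in the other order.

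TOP2A, the topoisomerase that untangles replicated chromosomes, had the highest RPKM of all members in each library, at 9.21 in CD30L+ CHO, 9.35 in CHO, 15.2 in SM-164 and 16.2 in DMSO. Among G1/S members the lead changed with the experiment. RRM2, the regulated subunit of ribonucleotide reductase, had an RPKM of 3.60 in CD30L+ CHO, 4.08 in CHO, 13 in SM-164 and 13.1 in DMSO. PCNA, the sliding clamp of the replication fork, had 5.16 in CD30L+ CHO, 5.15 in CHO, 8.51 in SM-164 and 9.62 in DMSO. RRM2 thus led in both drug libraries and PCNA in both co-culture libraries.

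Among the lowest members were G1 regulators, and in CD30L+ CHO also the licensing gene CDT1, at an RPKM of 0.163. CCND3, a D-type cyclin, stayed under the RPKM of 0.5 required for a comparison, at 0.226 in CD30L+ CHO, 0.295 in CHO, 0.473 in SM-164 and 0.491 in DMSO. CCND2, another D-type cyclin, had 35.0 reads in CD30L+ CHO, 40.0 in CHO, 2.00 in SM-164 and 1.00 in DMSO over its 31621 bases. It was close to undetected in the drug libraries, and its ratio of 27.1 between CHO and DMSO has a counting interval from 4.58 to 1090. CDK6, the kinase partner of D-type cyclins, was also under the minimum, at 0.169 in CD30L+ CHO, 0.0760 in CHO, 0.0509 in SM-164 and 0.0423 in DMSO.

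Ratios were taken as log2((treated RPKM + 0.25)/(control RPKM + 0.25)), which understates differences of low genes. They were compared for genes with at least 300 counted bases whose RPKM averaged 0.5 or more in the pair. Folds are ratios of read counts per library total without that addition, with 95% intervals that cover counting error only. Members at 2-fold, 1.5-fold and 1.2-fold on the log2 scale were counted beside all tested genes.

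The first comparison asked whether SM-164 changed the nascent RNA of cell cycle genes within 3 h. No member reached 1.5-fold on the log2 scale. Among 36 tested members 0 were higher and 0 lower at 2-fold, where 0.190% of 7881 genes were higher and 0.0634% lower. At 1.5-fold the counts were again 0 and 0, where 0.787% of all genes were higher and 1.10% lower. At 1.2-fold, 0 members were higher, against 4.06% of all genes, and 5 were lower, which is 13.9% of the tested members against 11.8% of all genes. The share of lower members was thus close to that of all genes. Median log2 ratios were -0.089 for 19 tested G1/S members and -0.071 for 17 G2/M members, beside -0.042 for all tested genes.

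The 5 lower members were CDT1, MCM4, MCM2, KIF20A and MKI67. MCM2 and MKI67 no longer reached 1.2-fold under TMM scaling, with log2 ratios of -0.26 and -0.24, nor with DESeq2 size factors, the median of all genes set to 0 or the length trend subtracted, which leaves 3. CDT1, which loads the MCM helicase at origins, had an RPKM of 0.163 in CD30L+ CHO, 0.349 in CHO, 0.877 in SM-164 and 1.33 in DMSO. Its fold with SM-164 was 0.660 (0.526 to 0.824), the lowest of all members, from 126 reads in SM-164 and 226 in DMSO. MCM4 and MCM2 are subunits of the helicase itself. MCM4 had an RPKM of 1.56 in CD30L+ CHO, 2.20 in CHO, 3.98 in SM-164 and 5.24 in DMSO, and its fold with SM-164 was 0.760 (0.716 to 0.805). MCM2 had an RPKM of 0.678 in CD30L+ CHO, 1.12 in CHO, 1.69 in SM-164 and 2.13 in DMSO, and its fold was 0.793 (0.733 to 0.858). All 6 MCM genes had folds under 1 with SM-164, from 0.760 for MCM4 to 0.946 for MCM6, where 4989 of 7881 tested genes also had log2 ratios below 0.

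KIF20A, a kinesin of the late mitotic spindle, and MKI67, the gene of the proliferation marker Ki-67, were the lower G2/M members. KIF20A had an RPKM of 3.61 in CD30L+ CHO, 5.82 in CHO, 4.83 in SM-164 and 6.34 in DMSO, with an SM-164 fold of 0.762 (0.707 to 0.822). MKI67 had an RPKM of 4.88 in CD30L+ CHO, 5.40 in CHO, 8.55 in SM-164 and 10.5 in DMSO, with an SM-164 fold of 0.816 (0.791 to 0.842). Their SM-164 values lay below DMSO, but KIF20A was lower still in CD30L+ CHO and MKI67 was lower still in both co-culture libraries.

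At 1.2-fold the other 31 tested members reached neither direction with SM-164. CDC20, TYMS, MCM5 and BUB1, described with the next comparison, were the next lowest, with folds of 0.829 (0.738 to 0.929), 0.847 (0.798 to 0.899), 0.849 (0.766 to 0.941) and 0.858 (0.782 to 0.940). RRM2 had a fold of 0.995 (0.948 to 1.04), and CDK1, the mitotic kinase that binds the B-type cyclins, of 0.999 (0.946 to 1.06). E2F2, an activating E2F factor, had the highest log2 ratio of the tested members, 0.15. Its RPKM was 0.639 in CD30L+ CHO, 0.955 in CHO, 1.31 in SM-164 and 1.15 in DMSO, with an SM-164 fold of 1.13 (1.03 to 1.25). POLA1, the catalytic subunit of the priming DNA polymerase, followed in the G1/S class, with an RPKM of 0.787 in CD30L+ CHO, 0.807 in CHO, 1.37 in SM-164 and 1.33 in DMSO and a fold of 1.03 (1.00 to 1.05). In the G2/M class the highest were TPX2, a spindle factor, and AURKA, the kinase that TPX2 activates. TPX2 had an RPKM of 3.91 in CD30L+ CHO, 4.25 in CHO, 5.05 in SM-164 and 4.87 in DMSO, and its fold was 1.04 (1.01 to 1.07). AURKA had an RPKM of 6.86 in CD30L+ CHO, 7.34 in CHO, 5.90 in SM-164 and 5.70 in DMSO, and its fold was 1.04 (0.990 to 1.08).

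The second comparison asked what the CD30 ligand added to contact with CHO cells. Of 34 tested members, KIF20A and CDC20 were at least 1.5-fold lower in CD30L+ CHO on the log2 scale. At 1.5-fold 0 were higher, and 0 reached 2-fold either way. Of all 7661 tested genes, 4.99% were lower and 2.62% higher at 1.5-fold, and 0.731% were lower and 0.979% higher at 2-fold. The 2 lower members make 5.88% of those tested, close to the share of all genes. At 1.2-fold, 12 members were lower, 35.3% against 25.6% of all genes, and 0 were higher, against 7.41%. The 12 became 5 under TMM scaling and 3 with DESeq2 size factors, with 1 and 2 members higher. The median log2 ratios were -0.18 for 17 tested G1/S members and -0.16 for 17 G2/M members, beside -0.12 for all tested genes. All 17 G2/M ratios were below 0 as deposited, but 8 of 17 under TMM scaling, which adds 0.20 to each log2 ratio before the pseudocount and puts both class medians just above 0.

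KIF20A, CDC20, PLK1 and AURKB held the low end of the G2/M class. KIF20A had a CD30L+ CHO fold of 0.621 (0.582 to 0.663). CDC20, the activator that starts anaphase through the anaphase-promoting complex, had an RPKM of 2.90 in CD30L+ CHO, 4.61 in CHO, 4.57 in SM-164 and 5.52 in DMSO, and its fold was 0.628 (0.564 to 0.698). In CD30L+ CHO both genes were below their values in each of the other 3 libraries. PLK1, a kinase of mitotic entry and spindle assembly, had an RPKM of 2.60 in CD30L+ CHO, 3.70 in CHO, 4.21 in SM-164 and 4.32 in DMSO, and its fold was 0.703 (0.655 to 0.753). AURKB, the kinase of the chromosomal passenger complex, had an RPKM of 1.90 in CD30L+ CHO, 2.39 in CHO, 2.73 in SM-164 and 2.77 in DMSO, and its fold was 0.792 (0.704 to 0.892). KIF20A and CDC20 no longer reached 1.5-fold under TMM scaling, with log2 ratios of -0.46 and -0.44 in place of -0.65 and -0.63. In hg19 coordinates KIF20A lies on chromosome 5 from 137514417 to 137523404 and CDC20 on chromosome 1 from 43824626 to 43828873, both on the plus strand.

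At the other end of the class, TOP2A, KIF11, BUB1 and CENPE differed least. TOP2A had a fold of 0.985 (0.961 to 1.01) in CD30L+ CHO against CHO. KIF11, the motor that separates the spindle poles, had an RPKM of 1.91 in CD30L+ CHO, 2.00 in CHO, 2.94 in SM-164 and 2.86 in DMSO, and its fold was 0.956 (0.921 to 0.993). CENPE, a kinetochore motor, had an RPKM of 2.33 in CD30L+ CHO, 2.47 in CHO, 2.07 in SM-164 and 2.28 in DMSO, and its fold was 0.944 (0.918 to 0.970). BUB1, a spindle checkpoint kinase, had an RPKM of 6.31 in CD30L+ CHO, 6.60 in CHO, 8.80 in SM-164 and 10.3 in DMSO, and its fold was 0.956 (0.876 to 1.04), but only 3502 of its 40276 bases were counted. The other G2/M members lay between, with folds from 0.821 for UBE2C, the ubiquitin-conjugating enzyme of the anaphase-promoting complex, to 0.934 for AURKA. They include the mitotic cyclins CCNA2, CCNB1 and CCNB2, CDK1, the kinetochore protein CENPF, TPX2 and MKI67. Counted length differed between these ends: CDC20, AURKB, KIF20A and PLK1 had 4248, 5835, 8988 and 11488 counted bases, whereas TOP2A, KIF11 and CENPE had 29430, 62328 and 92604. BUB1, with few counted bases, and CENPF, with 61383 and a fold of 0.858, did not follow this. With the running median over gene length subtracted, KIF20A stood at -0.45 and CDC20 at -0.40. The part of length in these differences was not tested further.

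Among tested G1/S members MCM2, MCM4, MCM5 and both E2F genes were at the low end in CD30L+ CHO. MCM2 had a fold of 0.607 (0.554 to 0.666) and MCM4 of 0.707 (0.658 to 0.760). MCM5 had a fold of 0.719 (0.642 to 0.805), and it passed the expression minimum only through CHO, with 0.477 in CD30L+ CHO and 0.664 in CHO. E2F2 had a fold of 0.669 (0.608 to 0.736). E2F1, a related factor, had an RPKM of 0.754 in CD30L+ CHO, 1.03 in CHO, 1.13 in SM-164 and 1.198 in DMSO and a fold of 0.728 (0.636 to 0.833). TYMS, the enzyme that makes thymidylate, and SLBP, the binding protein of histone mRNA stem-loops, had folds of 0.795 (0.749 to 0.844) and 0.785 (0.737 to 0.837). CDT1 was below the minimum in this pair, with 40.7 reads in CD30L+ CHO and 87.7 in CHO, a fold of 0.469 (0.316 to 0.688). GINS2, a subunit of the GINS complex of the active helicase, was below it too, with an RPKM of 0.340 in CD30L+ CHO, 0.454 in CHO, 0.929 in SM-164 and 0.975 in DMSO and a fold of 0.750 (0.613 to 0.917).

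The E-type cyclins, which activate CDK2 at the start of S phase, were the highest tested members with the ligand. CCNE1 had an RPKM of 1.04 in CD30L+ CHO, 0.936 in CHO, 1.14 in SM-164 and 1.13 in DMSO, and its fold was 1.11 (0.984 to 1.25). CCNE2 had an RPKM of 0.801 in CD30L+ CHO, 0.725 in CHO, 1.85 in SM-164 and 1.95 in DMSO, and its fold was 1.10 (0.977 to 1.25). Both intervals include 1. RRM1, the large subunit of ribonucleotide reductase, had an RPKM of 1.10 in CD30L+ CHO, 1.09 in CHO, 2.02 in SM-164 and 2.10 in DMSO and a fold of 1.01 (0.949 to 1.07), and PCNA had a fold of 1.00 (0.950 to 1.06). The remaining tested members, POLA1, MCM3, MCM6, MCM7, CDC6 and RRM2, had folds from 0.818 to 0.976.

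CDK6 went the other way from most members. It had 1779 reads in CD30L+ CHO, 808 in CHO, 309 in SM-164 and 304 in DMSO, over 231707 counted bases. That is a fold of 2.22 (2.04 to 2.41) with the ligand, the highest of the 39 members, and of 1.203 (1.02 to 1.41) with SM-164. Since its RPKM was under the minimum, the log2 ratio of 0.36 is damped by the pseudocount and CDK6 is in none of the counts above. In hg19 coordinates it lies on chromosome 7 from 92234235 to 92465941, minus strand.

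**Figure D2:**
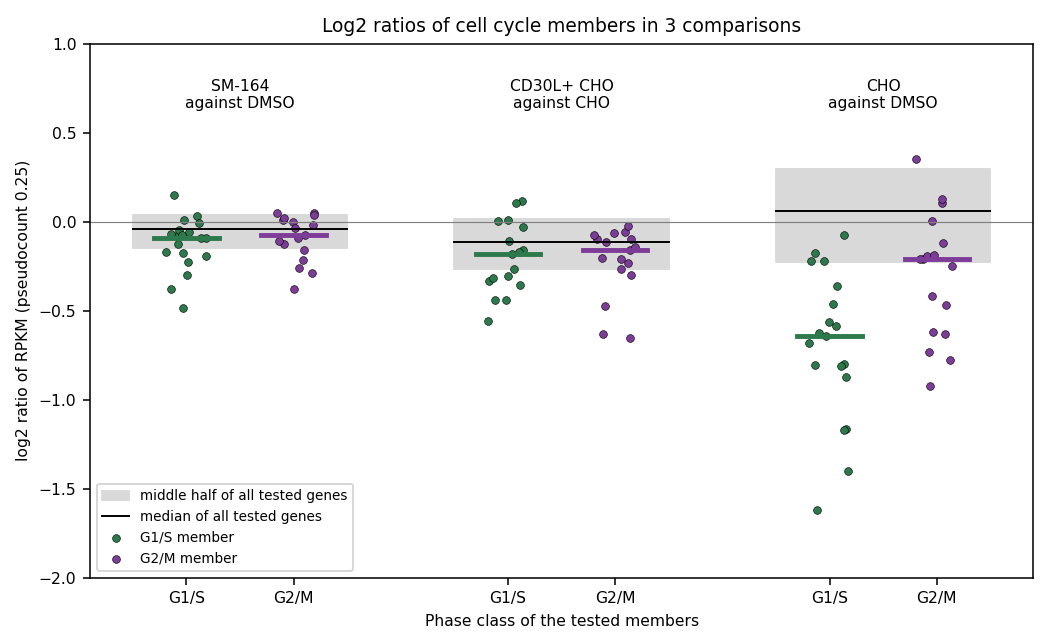
Log2 ratio of RPKM (pseudocount 0.25) of each tested G1/S and G2/M member in SM-164 against DMSO, CD30L+ CHO against CHO, and CHO against DMSO; coloured bars are class medians, black lines the median and grey bands the interquartile range of all tested genes. In the first 2 comparisons the class medians lie within the grey band, and in CHO against DMSO the G1/S median of -0.64 lies below it.

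The comparisons of SM-164 and of the ligand share no library. Of 34 members tested in both, 4 were 1.2-fold lower with SM-164 and 12 in CD30L+ CHO, and MCM2, MCM4 and KIF20A were in both lists. They are 75% of the SM-164 list and 25% of the CD30L list. Over all 7210 genes tested in both, 409 were lower in both, which is 55.4% of the SM-164 list and 21.9% of the CD30L list.

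The largest differences among members lay between the control libraries, CHO and DMSO. On the log2 scale, 11 of 19 tested G1/S members were at least 1.5-fold lower in CHO (57.9%). Of 17 G2/M members 5 were (29.4%), against 10.7% of 8081 tested genes. At 1.5-fold 0 members were higher, against 7.07% of all genes. RRM2, CDT1, CCNE2 and MCM4 were at least 2-fold lower on that scale, 11.1% of 36 tested members against 4.52% of all genes. At 2-fold 0 were higher, against 0.879%. At 1.2-fold, 15 G1/S and 7 G2/M members were lower, against 23.0% of all genes, and 1 member, AURKA, was higher, against 27.9%. The median log2 ratio was -0.64 for G1/S members, -0.21 for G2/M members and 0.059 for all tested genes. TMM scaling takes 0.11 off each log2 ratio of this pair, and all 19 G1/S ratios were below 0 with and without it. CDT1 and GINS2 passed the expression minimum only through DMSO. Over the 17 G1/S members above it in both libraries the median was -0.63, with 9 lower at 1.5-fold and 3 at 2-fold, since CDT1 drops out. Over all 22 with no minimum the median was -0.60. This pair shares CHO with the CD30L comparison and DMSO with the SM-164 comparison. Hamster cells, collection by pipetting, DMSO and the experiment itself differ together between these libraries and cannot be told apart.

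Genes of nucleotide supply, helicase loading and the replication fork were among the lowest between the controls. RRM2 had a fold of 0.313 (0.295 to 0.331) in CHO against DMSO, and CDT1 of 0.263 (0.203 to 0.338). In hg19 coordinates RRM2 lies on chromosome 2 from 10262695 to 10271546 and CDT1 on chromosome 16 from 88870186 to 88875666. RRM1 and PCNA had folds of 0.519 (0.491 to 0.549) and 0.536 (0.510 to 0.563), and GINS2 of 0.465 (0.392 to 0.550). For each of these 5 genes both co-culture values lay below both drug-experiment values. All 6 MCM genes were lower by at least 1.2-fold, with folds from 0.421 for MCM4 to 0.708 for MCM6. TYMS, with an RPKM of 3.39 in CHO and 5.36 in DMSO, had a fold of 0.632 (0.598 to 0.668).

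The regulators of G1/S entry did not share this difference evenly. CCNE2 had a fold of 0.372 (0.333 to 0.416) in CHO against DMSO, whereas its paralogue CCNE1 had 0.828 (0.728 to 0.943). E2F1 and E2F2 had folds of 0.864 (0.758 to 0.987) and 0.826 (0.755 to 0.904), and SLBP of 0.946 (0.887 to 1.01). CDC6 lay between, with a fold of 0.761 (0.709 to 0.817). CDK6 was higher in CHO, with a fold of 1.797 (1.57 to 2.06).

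The G2/M class was split in the same pair. MKI67 had a fold of 0.516 (0.5001 to 0.532) and TOP2A of 0.576 (0.563 to 0.590). CCNA2, the A-type cyclin of S phase and G2, CCNB1, a partner of CDK1, and BUB1 were the other 3 members lower by 1.5-fold, with folds of 0.583 (0.536 to 0.634), 0.636 (0.603 to 0.671) and 0.643 (0.590 to 0.700). BUB1 had only 3502 of its 40276 bases counted. Over the alternatives of processing its log2 ratio ran from -0.73 to -0.25, the latter short of 1.2-fold. CDK1 had an RPKM of 5.65 in CHO and 5.63 in DMSO, a fold of 1.00 (0.957 to 1.05). KIF20A had a fold of 0.918 (0.863 to 0.977). AURKA stood highest of all tested members, with a fold of 1.29 (1.24 to 1.34), followed by UBE2C with 1.10 (0.985 to 1.23) and CENPE with 1.08 (1.05 to 1.12).

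Replication-dependent histone genes, which are transcribed in S phase and were not among the members, differed in the same direction. The 70 genes with HIST symbols took 0.00464% of all reads in CD30L+ CHO (0.00444 to 0.00484), 0.00825% in CHO (0.00799 to 0.00852), 0.0557% in SM-164 (0.0548 to 0.0566) and 0.0917% in DMSO (0.0906 to 0.0927), with exact binomial 95% intervals. Many of them are near-identical copies, so their counts are uncertain. Of the CD30-positive lymphoma markers, 6 of 7 tested (85.7%) were at least 1.5-fold lower in CHO than in DMSO too, against 10.7% of all genes. Their median log2 ratio was -0.91. Their summed RPKM was 68.2 in CD30L+ CHO, 53.2 in CHO, 105 in SM-164 and 91.2 in DMSO. Their part in the members' differences was not tested.

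Other cell cycle genes were counted on the log2 scale in 8 lists of 194 genes. With SM-164, 0 of those tested reached 1.5-fold, where 0.787% of all genes were higher and 1.10% lower. Their list medians, as deposited, ran from -0.11 for nucleotide synthesis to -0.0075 for condensin and cohesin, beside -0.042 for all genes. In CD30L+ CHO against CHO, 2.62% of all genes were higher and 4.99% lower at 1.5-fold, so single genes in a list are no excess. Of 12 tested E2F, DREAM and MYB-FOXM1 factors 1 was 1.5-fold higher. It was E2F7, a repressing E2F factor, with an RPKM of 2.68 in CD30L+ CHO, 1.61 in CHO, 1.89 in SM-164 and 1.79 in DMSO and a fold of 1.67 (1.59 to 1.74). In the list of G2/M entry and the anaphase-promoting complex, 1 of 20 was 1.5-fold lower (5%, the share of all genes) and 0 higher. It was CDC25B, a phosphatase that activates CDK1, with an RPKM of 0.979 in CD30L+ CHO and 1.73 in CHO and a fold of 0.567 (0.505 to 0.636). Of 47 genes of spindle, kinetochore and cytokinesis 1 was 1.5-fold lower (2.13%, below the share of all genes) and 0 higher. It was TACC3, a spindle microtubule factor, with an RPKM of 0.922 in CD30L+ CHO and 1.62 in CHO and a fold of 0.568 (0.525 to 0.614).

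Nucleotide synthesis had the lowest list median with the ligand, -0.26, which was -0.089 under TMM scaling and -0.067 with DESeq2 size factors. In it 2 of 11 tested genes (18.2%) were lower at 1.5-fold and 0 higher, against 4.99% and 2.62% of all genes. PPAT, the first committed enzyme of purine synthesis, had an RPKM of 0.806 in CD30L+ CHO and 1.55 in CHO and a fold of 0.521 (0.490 to 0.554). CTPS, which makes CTP, had an RPKM of 0.781 in CD30L+ CHO and 1.30 in CHO and a fold of 0.600 (0.557 to 0.645). Among 36 origin and fork genes, POLD2, a subunit of DNA polymerase delta, was the 1 lower at 1.5-fold, with an RPKM of 0.582 in CD30L+ CHO and 1.01 in CHO. In the G1 kinase and inhibitor list, the condensin and cohesin list and the checkpoint list, 0 of 13, 0 of 20 and 0 of 12 tested genes reached 1.5-fold in either direction.

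**Figure D3:**
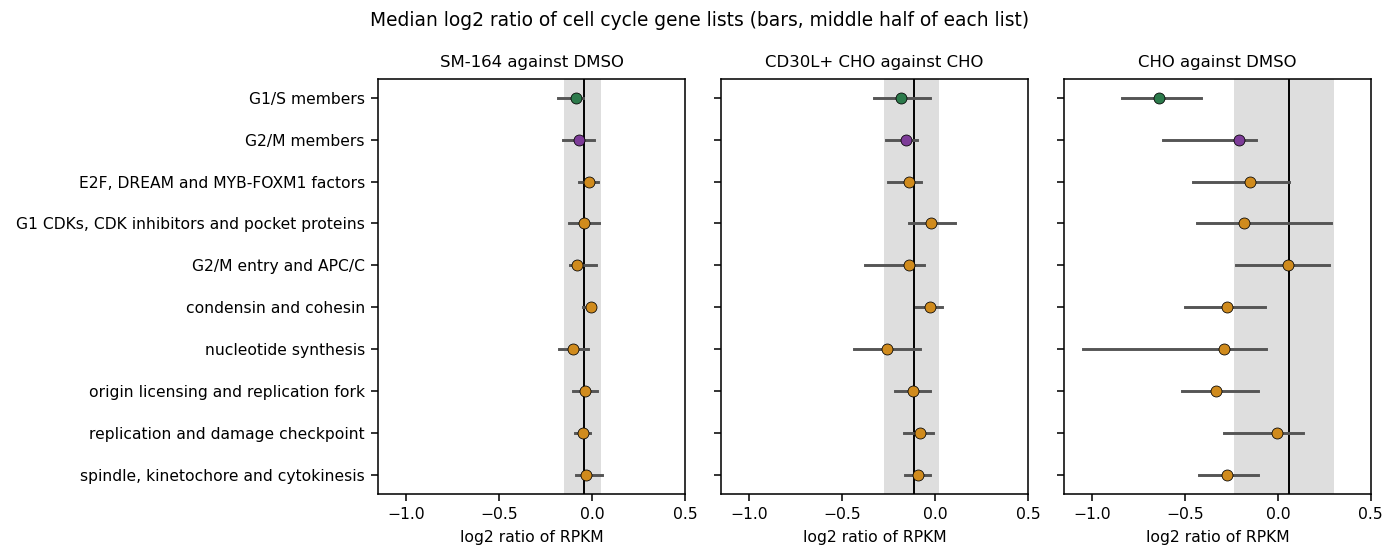
Median log2 ratio of RPKM (points) and interquartile range (bars) of both member classes and 8 lists of other cell cycle genes in the 3 comparisons; black lines and grey bands give the median and interquartile range of all tested genes. With SM-164 every median lies within the grey band; between CHO and DMSO the G1/S members at -0.64 stand lowest, followed by origin and fork genes at -0.33 and nucleotide synthesis at -0.29.

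Between CHO and DMSO the other lists had smaller medians than the G1/S members. Nucleotide synthesis had -0.29 over 12 tested, with 5 lower by 1.5-fold (41.7%) and 0 higher, against 10.7% lower and 7.07% higher of all genes. Origin and fork genes had -0.33 over 38, with 5 lower (13.2%) and 0 higher, close to the share of all genes. Spindle, kinetochore and cytokinesis genes had -0.28 over 47, with 5 lower (10.6%) and 0 higher, also close to it. At 1.2-fold, though, 23 origin and fork genes (60.5%) and 25 spindle genes (53.2%) were lower, against 23.0% of all genes. Condensin and cohesin genes had -0.28 over 20, with 5 lower (25%) and 1 higher by 1.5-fold. Of those 5, NCAPH had only 4495 of its 39791 bases counted. The list of G2/M entry and the anaphase-promoting complex had 0.054 over 21, which TMM scaling turned to -0.034, with 5 lower by 1.5-fold (23.8%) and 0 higher. These 5 include ANAPC1, with only 6310 of its 115102 bases counted, and CDC27, with 5610 of 71355. The checkpoint list had -0.0023 over 13, with 1 lower and 1 higher. Genes outside the members with the same promoter letters had medians near that of all genes. It was 0.0065 for 358 tested genes with E2F letters, 0.024 for 370 with CHR and CCAAT, and 0.078 for 5113 with neither.

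The opposite strand gave a further readout. All 39 members had an antisense entry, and over members at an RPKM of 0.5 or more its median was 0.267% of sense reads in CD30L+ CHO, 0.367% in CHO, 0.300% in SM-164 and 0.253% in DMSO. Over all such genes the medians were 0.313% in CD30L+ CHO, 0.377% in CHO, 0.341% in SM-164 and 0.306% in DMSO. A few members stood far above, and the 6 with the highest percentage in CD30L+ CHO are described, chosen after their values were seen. CDT1 had antisense reads at 56.5% of its sense reads in CD30L+ CHO, 45.6% in CHO, 15.9% in SM-164 and 5.75% in DMSO. GINS2 had 68.0% in CD30L+ CHO, 57.0% in CHO, 10.9% in SM-164 and 11.7% in DMSO. For both genes antisense reads per library total were higher in CHO than in DMSO, by 2.08-fold (1.09 to 4.24) for CDT1 and 2.27-fold (1.58 to 3.31) for GINS2, while sense reads were lower. CDC20 and KIF20A had antisense folds of 2.28 (1.64 to 3.22) and 1.93 (1.52 to 2.45) in that pair.

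**Figure D4:**
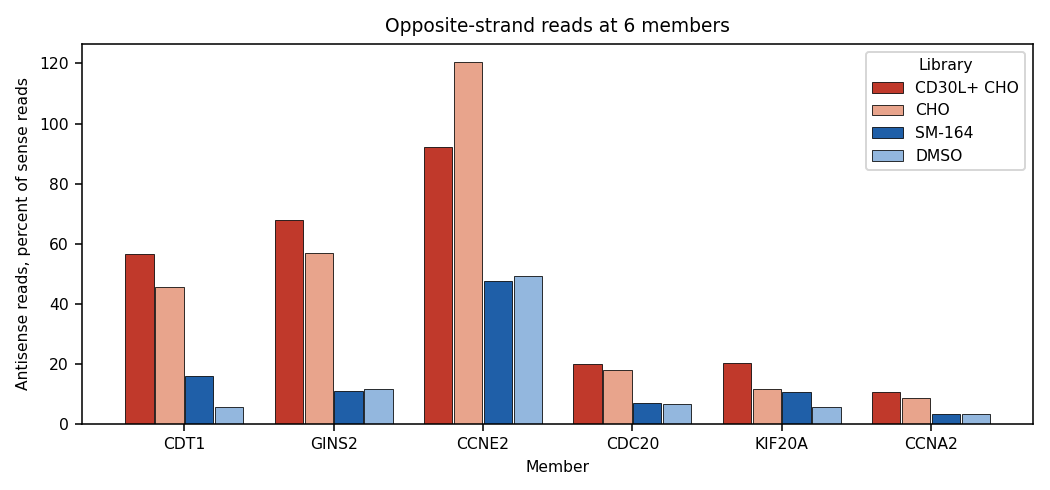
Reads on the opposite strand as a percentage of sense reads at 6 members in the 4 libraries. At all 6 the bars of both co-culture libraries are higher than those of both drug libraries, with CCNE2 highest at 121% in CHO. The 6 were picked for the highest percentage in CD30L+ CHO, which favours high co-culture bars. Fewer sense reads also raise the percentage.

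Each of these 6 genes has a neighbour on the opposite strand whose end faces its own. In the hg19 coordinates of the deposited tables CCNE2, CCNA2 and KIF20A overlap INTS8, EXOSC9 and CDC23 by 269, 578 and 68 bases. CDT1, CDC20 and GINS2 end 210, 198 and 1467 bases from APRT, ELOVL1 and KIAA0182. Reads of a neighbour beyond its end and an antisense RNA of the member cannot be told apart in these counts. A shared stretch did not always go with a high share: TYMS overlaps ENOSF1 by 3176 bases, and its antisense reads were 2.77% of sense reads in CD30L+ CHO and 2.92% in CHO. For CCNE2, antisense reads had a fold of 0.914 (0.808 to 1.04) in CHO against DMSO, where sense reads had 0.372. CDK6, whose facing neighbour MGC16142 lies 65155 bases away, had 92.0 antisense reads in CD30L+ CHO and 46.0 in CHO, a fold of 2.02 (1.4 to 2.94), beside its sense fold of 2.22.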

How the data were processed

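Bru-labelled RNA of 4 libraries, 1 per condition, was analysed. The submitters' processing notes name the build hg19 and the tools bedtools 2.16.2, TopHat 1.4.1, Bowtie 0.12.8 and CASAVA 1.8.2. No source used here states the gene annotation, or which libraries were strand-specific; sense and antisense reads are separate entries in each file. The authors deposited an estimated count per feature over exons and introns, the signal per counted base, and the RPKM, scaled by 1 library total per file that was recovered from the signal and RPKM columns. Of several sense entries with 1 symbol, the longest by counted bases was used.

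Ratios, folds with exact conditional (Clopper-Pearson) 95% intervals on counts rounded to whole reads, motif matches and antisense shares were computed with Python 3.11.15, numpy 2.4.6, pandas 2.3.3 and scipy 1.17.1, and figures with matplotlib 3.10.9. With 1 library per condition no test was possible and no p-value was computed; intervals cover counting error only, since PCR copies of a molecule were not told apart. Alternatives changed the pseudocount to 0.1 or 1, the RPKM minimum to 0 or 1 and the length minimum to 1000 counted bases, and used TMM (edgeR 4.0.16, R 4.3.3), DESeq2 1.42.0 size factors, a median set to 0, subtraction of a running median over 500 genes ordered by counted bases, a counting interval that excludes 1, and the G1/S class without CCND2, CCND3 and CDK6. The procedure was tested on simulated data.

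The members and lists were chosen with earlier results of these data known. All members are named. Values in each library are given for the 4 highest and 4 lowest log2 ratios of each class in the CD30L comparison, the 2 highest and 2 lowest of each class in the SM-164 comparison, members at 1.5-fold there and members below the expression minimum. Of each other list, up to 4 genes past 1.5-fold in those comparisons are named. Members described between CHO and DMSO, the antisense genes and their neighbours were picked after their values were seen.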

Additional observations from a re-analysis of the deposited data

How the results depend on the processing

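No paired analysis was possible because each condition has 1 library, and for the same reason no replicate could be left out. For CHO against DMSO, the G1/S median ran from -0.75 (length trend subtracted) to -0.48 (pseudocount 1), the G2/M median from -0.32 (DESeq2 size factors) to -0.18, and their difference from 0.30 (pseudocount 1) to 0.51, all on 1 side of 0. A pseudocount of 1 left 1 member lower at 2-fold and 9 at 1.5-fold. The 1 member higher at 1.2-fold, AURKA, became 0 under TMM and under DESeq2 size factors. Over all settings the log2 ratio of AURKA ran from 0.19 to 0.36 and that of UBE2C from 0.018 to 0.38, so which member passed 1.2-fold depended on the setting. Genes of all kinds numbered 111 higher at 2-fold with a pseudocount of 0.1, 18 higher and 209 lower with 1, 46 higher at an RPKM of 1, and 123 higher and 235 lower without the length trend. For CD30L+ CHO against CHO, the G1/S median was 0.0029 under TMM, 0.027 with DESeq2 size factors, -0.066 with the median set to 0 and -0.024 without the length trend, and the G2/M median was 0.039, 0.064, -0.041 and -0.035 in the same order. Members lower at 1.5-fold numbered 0 under those 4 settings and with a pseudocount of 1. With a pseudocount of 0.1 they numbered 3, with MCM2 at -0.64 added. Members lower at 1.2-fold numbered 5 with a pseudocount of 1, 5 under TMM, 3 with DESeq2 size factors, 6 with the median set to 0 and 6 without the length trend. Members higher at 1.2-fold numbered 1 under TMM, 2 with DESeq2 size factors, 2 without the length trend and 1 with no expression minimum, which is CDK6. All genes numbered 97 lower at 2-fold with a pseudocount of 0.1, 43 higher and 15 lower with 1, 31 lower at an RPKM of 1, 33 lower under TMM, 123 higher and 30 lower with DESeq2 size factors, and 25 lower without the length trend. For SM-164 against DMSO, members lower at 1.2-fold numbered 3 under TMM, DESeq2 size factors, the median set to 0 and subtraction of the length trend, which also turned the G2/M median to 0.043. All genes lower at 2-fold numbered 9 with a pseudocount of 0.1, 3 with 1, 9 with no minimum, 1 at 1000 counted bases and 0 without the length trend, and 8 were higher with a pseudocount of 1. The cause of these shifts was not tested. The other member counts moved by at most 1.5 times and class medians by less than 0.1 log2.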
